A study of Saccharomyces cerevisiae with 12 samples.

Results

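The comparison described here sets 3 arrays of a budding yeast (Saccharomyces cerevisiae) strain with mutated 14-3-3 genes against 3 arrays of the wild type, 6 of the 12 arrays of the study, over all named genes on the array. The arrays were chosen by their genotype labels, and no measured value entered the choice. The bmh mutant, strain YLL1087, lacks BMH2 (bmh2∆) and has, in place of BMH1, the temperature-sensitive allele bmh1-170ts. The wild type is W303-1A, a common laboratory strain, and both strains share that genetic background. The other 6 arrays entered the estimate of spread and the background, and their changes are described only near the end. Of these, 3 carry the same 14-3-3 mutations with deletions of the deacetylase genes HDA1 and RPD3 (the combined mutant), and 3 carry only those deletions (the hdac mutant). All cultures, treated alike, grew exponentially at 30 °C in YP, a rich medium, with 5% glucose and were collected at an OD600 between 0.7 and 1.3; 250 ng of total RNA from each was labelled. Each genotype is 1 strain grown as 3 cultures, so differences between the strains other than the listed mutations are part of every comparison, and the labels used here do not give their auxotrophic markers.

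14-3-3 proteins are small acidic dimers that bind other proteins at phosphorylated serines and threonines and thereby change where those proteins are, what they bind or how active they are. Budding yeast has a pair of them, Bmh1 and Bmh2, with largely overlapping functions, and most strains die without both. Their known partners include transcription factors, protein kinases and metabolic enzymes of glucose, nitrogen and stress signalling.

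Values are log2 signals of Affymetrix Yeast Genome 2.0 arrays. A change is the mean of the bmh mutant minus the mean of the wild type on that scale, given with its standard error from limma (n = 3 arrays per strain throughout), so that a change of 1 is a doubling. A gene rose or fell where limma's p, adjusted by Benjamini-Hochberg over 5448 genes, was under 0.05. Signals of different genes are not comparable, since probes differ. Array medians lay between 8.806 and 8.846. Background was set at 4.13, the top value among 18 readings of the BMH2, HDA1 or RPD3 probe set from strains in which that gene is deleted. The a-cell genes of this mating type were well above it, from 10.25 to 12.62 in the bmh mutant and from 10.30 to 12.73 in the wild type. Of them MFA1 and STE6 were called, at −0.59 ± 0.11 and −0.35 ± 0.07 (limma adjusted p = 0.0019 and 0.0018), and MFA2, STE2, BAR1 and AGA2 were not. Of the alpha-cell genes MF(ALPHA)1 lay below background in both strains. STE3 was at 4.69 in the bmh mutant and 4.46 in the wild type, MF(ALPHA)2 at 5.86 in the bmh mutant and 5.99 in the wild type, and SAG1 at 8.15 in the bmh mutant and 7.97 in the wild type. Wild-type array 1 stood apart: a difference of 2-fold or more from the other arrays of its strain was found at 61 genes there, at 5 and 6 genes on wild-type arrays 2 and 3, and at 0, 0 and 1 genes on the bmh mutant arrays. The median SD over genes was 0.0654 in the bmh mutant, 0.135 in the wild type, 0.0673 in the combined mutant and 0.0681 in the hdac mutant. Standard errors and p-values rest on 1 spread per gene shared by all 12 arrays, so they can understate the spread of the wild type. With only the 6 arrays of the comparison in the fit, 1093 genes rose or fell in place of 1742. Many results are also given without wild-type array 1, but not every small change of a count without it is listed. Signals average over all cells of a culture, so a change in the share of cells in some state and a change of RNA per cell cannot be told apart.

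The signal of 1742 genes changed in the bmh mutant, 32.0% of those tested, most of them by little. Rises numbered 807 (14.8%) and falls 935 (17.2%). Of the called genes, 1334 changed less than 1.5-fold, 255 between 1.5- and 2-fold and 153 by 2-fold or more, 36 of them by 4-fold or more. At least 2-fold rises were seen for 89 genes (1.63%) and falls for 64 (1.17%). The values of the strains did not overlap at 2246 genes (41.2%). The median change over all genes was −0.01. Without wild-type array 1, 2351 genes were called (1111 rose, 20.4%, and 1240 fell, 22.8%), of which 1624 were called with it too. The percentages of genes that rose and fell are the background against which counts in gene groups are read below. The gene groups were chosen with earlier results of these data known, so their counts are descriptions.

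Among the largest rises were genes of the cell wall, of stress and of purine, vitamin B6 and arginine synthesis, and among the largest falls were genes of peptide, iron, phosphate and branched-chain amino acid metabolism. The plot of signals on each array shows 12 of these genes. HSP12, which encodes a small membrane-stabilising stress protein, measured 12.45, 12.10 and 12.10 on the bmh mutant arrays, against 10.09, 7.56 and 7.58 on the wild-type arrays. Wild-type array 1 lay between the other wild-type arrays and the mutant. The change was 3.81 ± 0.50 (adjusted p = 0.00012), and 4.65 without that array. PTR2, which encodes the main importer of di- and tripeptides, measured 7.86, 7.77 and 7.70 on the bmh mutant arrays, against 12.19, 11.67 and 11.37 on the wild-type arrays. It was low on every mutant array and the change was −3.97 ± 0.16 (adjusted p = 4.2e-09).

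**Figure D1:**
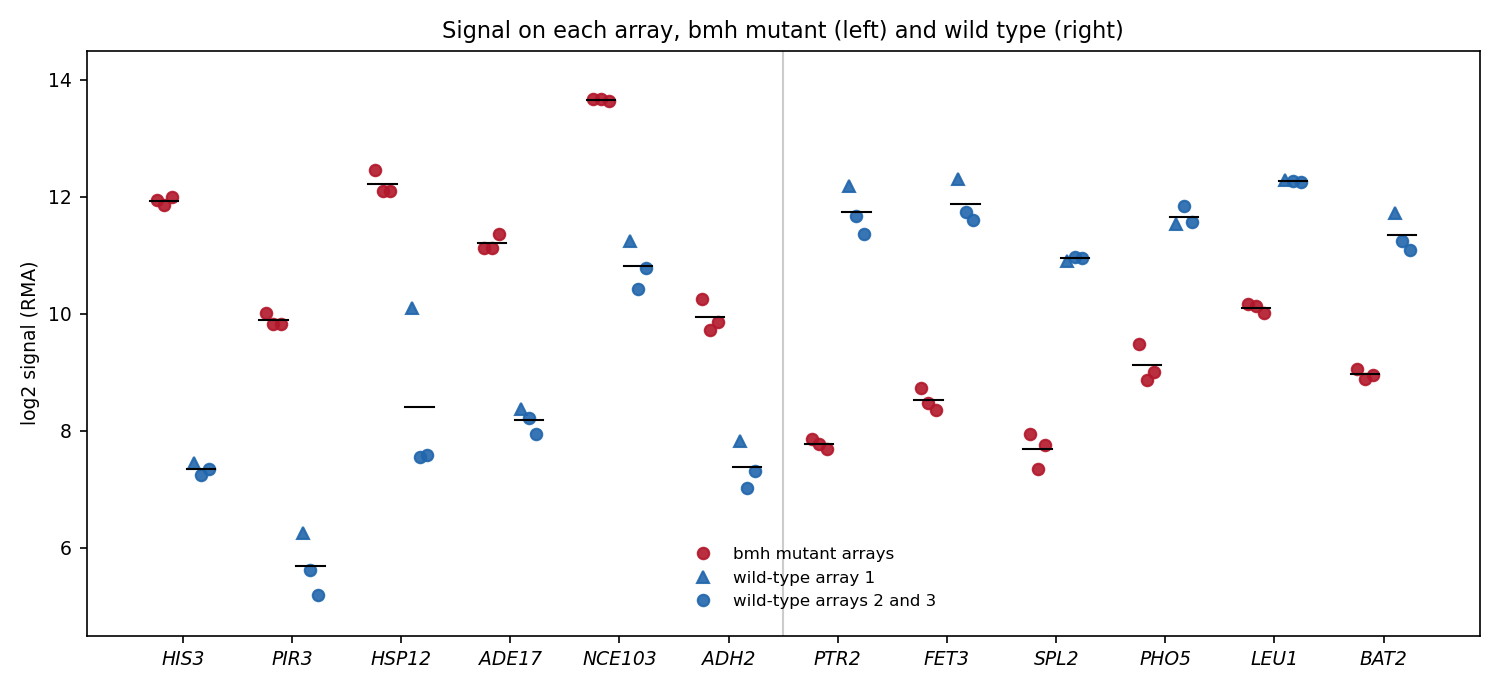
Log2 signal of 12 genes (x axis) on each of the 6 arrays, with the bmh mutant (red, left) and the wild type (blue, right) of each gene side by side, group means as black lines and wild-type array 1 as triangles. The 6 genes on the left were higher on every mutant array and the 6 on the right were lower, and HSP12 on wild-type array 1 (10.09) lay away from the other wild-type arrays (7.56 and 7.58).

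BMH2, which the mutant lacks, gave low signals there, and BMH1 signal did not differ detectably. The BMH2 readings of the mutant are among those that set the background, so they could not lie above it. BMH2 measured 4.13, 4.05 and 3.90 on the bmh mutant arrays, against 11.81, 11.47 and 11.63 on the wild-type arrays. The mutant was at least 182-fold lower, from the background of 4.13 to the wild-type mean. BMH1 measured 12.90, 12.96 and 12.94 on the bmh mutant arrays, against 12.98, 12.82 and 12.86 on the wild-type arrays, with a change of 0.05 ± 0.06 (adjusted p = 0.58), and the arrays do not read the amount or activity of the protein. The genes beside these loci moved little. ECM32 and PDA1, which flank BMH1, changed by −0.31 ± 0.07 and −0.27 ± 0.07 (adjusted p = 0.006 and 0.01), and TVP15, next to BMH2, by −0.47 ± 0.12 (adjusted p = 0.013), or −0.29 without wild-type array 1.

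Several genes whose proteins are known to be bound by Bmh1 or Bmh2 had higher transcript levels. Of 15 such genes 6 rose and 0 fell (median change 0.23), and without wild-type array 1, 7 rose and 1 fell. NTH1, the neutral trehalase that 14-3-3 binding activates, measured 9.21, 9.03 and 9.12 on the bmh mutant arrays, against 8.03, 8.02 and 7.93 on the wild-type arrays. All mutant arrays were above all wild-type arrays, and the change was 1.13 ± 0.08 (adjusted p = 3.7e-07). YAK1, a kinase that opposes growth signalling by protein kinase A, rose by 0.68 ± 0.07, and MSN4, a transcription factor of the general stress response, by 0.59 ± 0.10. ACM1, an inhibitor of the anaphase-promoting complex, rose by 0.42 ± 0.07 and ATG13, an autophagy regulator, by 0.42 ± 0.07 (adjusted p between 1.2e-05 and 0.0011 for these 4 genes). REG1, which targets a phosphatase to the Snf1 pathway, also rose, by 0.25 ± 0.08 (adjusted p = 0.04), a call that ended when wild-type array 2 or 3 or any mutant array was left out. The transcription factors MSN2 (−0.06 ± 0.08), ADR1 (0.23 ± 0.16) and RTG3 (0.06 ± 0.06) and the checkpoint kinase RAD53 (−0.15 ± 0.06) did not pass the test.

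All measured loci that commonly carry marker alleles in W303 strains were higher in the bmh mutant, 5 of 5, with a median change of 1.45. HIS3, an enzyme of histidine synthesis, had the largest rise of all genes. It measured 11.94, 11.86 and 11.996 on the bmh mutant arrays, against 7.45, 7.25 and 7.36 on the wild-type arrays. The change was 4.58 ± 0.06 (adjusted p = 1.4e-13), while its neighbours MRM1 and DED1 changed by 0.17 ± 0.08 and −0.09 ± 0.10 and did not pass the test (adjusted p = 0.11 and 0.52; without wild-type array 1, DED1 was called at −0.21). ADE2, of purine synthesis, measured 9.47, 9.74 and 9.74 on the bmh mutant arrays, against 7.99, 8.36 and 8.04 on the wild-type arrays. URA3, of pyrimidine synthesis, measured 12.05, 12.16 and 12.02 on the bmh mutant arrays, against 10.61, 10.55 and 10.71 on the wild-type arrays. Both were higher on every mutant array, with changes of 1.52 ± 0.11 and 1.45 ± 0.10 (adjusted p = 7.6e-07 and 3.6e-07). LEU2, of leucine synthesis, rose by 0.76 ± 0.11 and CAN1, the arginine permease, by 0.48 ± 0.10 (adjusted p = 0.00025 and 0.0035). TRP1 was not analysed here. Whether marker alleles or plasmids differ between the strains is not given in the labels, and their part in these values or in those of the pathways below was not tested.

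Histidine, arginine and lysine synthesis genes were mostly higher in the bmh mutant. Of 7 histidine genes 5 rose (median 0.58), and besides HIS3 the largest rises were those of HIS4, a multifunctional enzyme of the pathway (1.67 ± 0.08), and HIS5, the aminotransferase (0.88 ± 0.06). All 7 measured genes of arginine synthesis rose, with a median of 1.23. ARG1, argininosuccinate synthetase, measured 12.62, 12.84 and 12.69 on the bmh mutant arrays, against 10.48, 10.12 and 10.29 on the wild-type arrays. The arrays of the strains were well apart, and the change was 2.42 ± 0.09 (adjusted p = 1.5e-09). CPA1, which makes carbamoyl phosphate for arginine, rose by 1.5 ± 0.08, and ARG7, ARG3 and ARG8, enzymes of the ornithine and citrulline steps, by 1.27 ± 0.10, 1.23 ± 0.09 and 1.17 ± 0.07. Of 4 arginine and proline breakdown genes 0 rose and 2 fell, CAR2, ornithine transaminase, by 1.01 ± 0.19 and PUT2, of proline breakdown, by 0.36 ± 0.08. CAR1, arginase, changed by 0.23 ± 0.18 (adjusted p = 0.36) and was called at 0.53 without wild-type array 1. Of 9 lysine genes 6 rose and 0 fell (median 0.31), led by LYS1, the last enzyme of the pathway (1.01 ± 0.10, adjusted p = 1e-05).

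Branched-chain amino acid genes went the other way, 8 of 13 falling and 3 rising, with a median change of −0.40. LEU1, which makes the 3-isopropylmalate that LEU2 acts on, measured 10.17, 10.13 and 10.02 on the bmh mutant arrays, against 12.29, 12.27 and 12.26 on the wild-type arrays. The arrays within each strain differed by little, and the change was −2.17 ± 0.07 (adjusted p = 1.3e-09). BAT2, the cytosolic branched-chain aminotransferase, measured 9.06, 8.88 and 8.96 on the bmh mutant arrays, against 11.73, 11.25 and 11.10 on the wild-type arrays, and fell by 2.39 ± 0.12. Its mitochondrial counterpart BAT1 fell by 1.07 ± 0.05, and OAC1, a mitochondrial carrier that exports an intermediate of leucine synthesis, by 1.96 ± 0.10. ILV3, LEU9, ILV2 and ILV5 fell by 0.55, 0.53, 0.40 and 0.30, with standard errors from 0.05 to 0.06. Besides LEU2 the rises were those of ILV6 (0.51 ± 0.06), the regulatory subunit of acetolactate synthase, and ILV1 (0.33 ± 0.06), threonine deaminase. LEU3, the pathway's transcription factor, changed by 0.09 ± 0.15 (adjusted p = 0.67).

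Other amino acid genes were mixed. Of 12 genes of aromatic amino acid synthesis 6 rose and 1 fell, with rises of up to 0.50 (ARO3), and the count of rises over synthesis and breakdown together went to 4 without bmh mutant array 2, against 7 with all arrays. The breakdown genes ARO10, a decarboxylase, and ARO9, an aminotransferase, fell by 2.07 ± 0.16 and 1.90 ± 0.13. ARO9 measured 7.89, 7.86 and 7.72 on the bmh mutant arrays, against 10.09, 9.52 and 9.56 on the wild-type arrays. Their activator ARO80 changed by 0.37 ± 0.12 with overlapping arrays, and its call (adjusted p = 0.033) ended without bmh mutant array 2 or 3 or wild-type array 2 or 3. Of 15 threonine, serine and glycine genes 3 rose and 2 fell (20% and 13.3%, against 14.8% and 17.2% of all genes). Among them SER3, the first enzyme of serine synthesis (1.49 ± 0.25), and its paralog SER33 (−0.53 ± 0.10) went in opposite directions. GLN1, glutamine synthetase, rose by 1.18 ± 0.07 and UGA2, the last enzyme of GABA breakdown, by 1.36 ± 0.06; 3 of 9 glutamate and GABA genes rose and 0 fell. PCL5, a cyclin known to promote turnover of the amino acid control factor Gcn4, rose by 1.54 ± 0.06 (adjusted p = 4.3e-09). Of 18 cytosolic aminoacyl-tRNA synthetase genes 0 rose and 5 fell, by at most 0.34 (CDC60).

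Permeases that yeast represses on good nitrogen sources were higher, while some permeases induced by external amino acids were much lower. All 7 nitrogen-repressed permease genes rose (median 0.86), among them CAN1, which is also counted with the marker loci above. MEP2, the high-affinity ammonium permease, measured 12.33, 12.41 and 12.23 on the bmh mutant arrays, against 10.25, 11.22 and 10.80 on the wild-type arrays, a change of 1.57 ± 0.18. PUT4, the proline permease, rose by 1.19 ± 0.13, and GAP1, the general amino acid permease, by 0.86 ± 0.09. DIP5, for dicarboxylic amino acids, measured 10.52, 10.82 and 10.58 on the bmh mutant arrays, against 10.58, 8.83 and 8.54 on the wild-type arrays. Wild-type array 1 overlapped the mutant there, and the call (1.33 ± 0.38, adjusted p = 0.019) ended without bmh mutant array 2 or wild-type array 2 or 3. The call of DIP5 also ended with only the 6 arrays of the comparison in the fit (limma adjusted p = 0.11). Of 9 permease genes induced through the SPS amino acid sensor 2 rose and 2 fell (median 0.00), the falls being PTR2 and BAP2, a branched-chain amino acid permease (−1.62 ± 0.07), and the rises AGP1, a broad permease (0.89 ± 0.10), and GNP1 (0.24 ± 0.05). Of the 5 genes of the sensor and its factors, STP2, a transcription factor it releases, rose by 0.46 ± 0.07. OPT1, an oligopeptide and glutathione transporter among 9 other permeases, fell by 0.87 ± 0.10. Of 14 allantoin and urea genes 3 rose and 2 fell (21.4% and 14.3%, against 14.8% and 17.2% of all genes), and DAL4 changed most (0.58 ± 0.14). The falls numbered between 0 and 2 with 1 array left out, bmh mutant arrays 1 and 2 and wild-type arrays 1 and 2 each moving them.

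Many purine and pyrimidine synthesis genes rose. Of the 8 measured genes of the steps to IMP 7 rose and 1 fell. ADE17 and ADE16 encode isozymes of the last steps to IMP. ADE17 measured 11.12, 11.12 and 11.37 on the bmh mutant arrays, against 8.37, 8.22 and 7.95 on the wild-type arrays. Its change was 3.02 ± 0.10 (adjusted p = 1.3e-09), whereas ADE16 changed by −0.28 ± 0.08 (adjusted p = 0.022, not called without bmh mutant array 3). ADE1 rose by 1.65 ± 0.07 and ADE2 by 1.52 ± 0.11, both enzymes of the middle steps. The folate enzymes MTD1 and SHM2 rose by 1.47 ± 0.06 and 0.96 ± 0.13, and ADE12, which commits IMP to AMP, by 1.03 ± 0.08. IMD2, IMP dehydrogenase of the GMP branch, fell by 1.27 ± 0.08 (adjusted p = 3.3e-07), and BAS1, the pathway's activator, changed by 0.06 ± 0.13 (adjusted p = 0.79). In all 11 of 19 purine genes rose and 3 fell (median 0.29). Of 12 pyrimidine genes 7 rose and 0 fell (median 0.32), with URA1, dihydroorotate dehydrogenase, at 1.41 ± 0.07, URA4, dihydroorotase, at 1.23 ± 0.06, and the uracil permease FUR4 at 0.75 ± 0.08. Without wild-type array 1 the pyrimidine counts were 6 and 1.

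Among vitamin genes the 2 largest rises were in vitamin B6 synthesis. SNO1 measured 7.23, 7.17 and 7.08 on the bmh mutant arrays, against 4.57, 4.34 and 3.78 on the wild-type arrays. SNZ1 measured 9.43, 9.22 and 9.26 on the bmh mutant arrays, against 7.48, 7.42 and 7.26 on the wild-type arrays; together they make the subunits of pyridoxal phosphate synthase. SNO1 was close to background in the wild type, and on wild-type array 3 below it. Their changes were 2.93 ± 0.16 and 1.92 ± 0.07 (adjusted p = 6.2e-08 and 3.9e-09), and 5 of 8 vitamin B6 genes rose and 0 fell. NAD synthesis and salvage showed 7 falls and 3 rises among 15 genes, the falls led by BNA7, of synthesis from tryptophan (−1.14 ± 0.09), and NMA1, the adenylyltransferase shared by synthesis and salvage (−0.77 ± 0.10); the rises numbered from 1 to 4 when 1 array was left out, and bmh mutant arrays 1 and 2 and wild-type arrays 2 and 3 each moved them by over 1.5 times. Of 5 biotin genes 2 rose and 0 fell, VHT1, the biotin importer, by 0.60 ± 0.10 and BIO4 by 0.51 ± 0.09; without wild-type array 1, 2 rose and 1 fell. Of 13 thiamine genes 2 rose and 2 fell (15.4% each, against 14.8% and 17.2% of all genes), and 4 rose without wild-type array 3. THI4, of thiazole synthesis, changed by 0.60 ± 0.10 and THI7, the thiamine importer, by −0.57 ± 0.08.

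Cell wall genes were raised in the bmh mutant. Of 24 cell wall protein genes 14 rose and 2 fell (median 0.30), and 14 rose whichever array was left out. PIR3, a wall protein with internal repeats that is a common readout of the cell integrity pathway, measured 10.01, 9.83 and 9.83 on the bmh mutant arrays, against 6.25, 5.62 and 5.19 on the wild-type arrays. The mutant arrays agreed closely, the wild-type arrays less so, and the change was 4.21 ± 0.19 (adjusted p = 1.2e-08). The mannoprotein gene HPF1 measured 11.33, 10.84 and 11.04 on the bmh mutant arrays, against 8.69, 8.20 and 7.86 on the wild-type arrays, a change of 2.82 ± 0.17, and CWP1 and PST1, GPI-anchored wall proteins, rose by 1.53 ± 0.19 and 1.25 ± 0.22. TIR1, a wall mannoprotein gene known to respond to cold and low oxygen, was the exception with 7.13, 7.37 and 7.78 on the bmh mutant arrays, against 8.92, 9.96 and 9.997 on the wild-type arrays. It fell by 2.19 ± 0.24 (adjusted p = 3e-05). The other fall, TIP1 (−0.62 ± 0.18), was not called without bmh mutant array 2 or wild-type array 2 or 3, and without wild-type array 1 the falls numbered 5.

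The signalling genes of the cell integrity pathway rose at a few points. Of 22 genes 6 rose and 1 fell (4 fell without wild-type array 1). KDX1, a kinase-like paralog of the pathway's MAP kinase, measured 8.36, 8.10 and 8.18 on the bmh mutant arrays, against 5.82, 5.58 and 5.57 on the wild-type arrays. Its change was 2.56 ± 0.09 (adjusted p = 1.4e-09). SLT2, the MAP kinase, rose by 0.68 ± 0.06, RLM1, the transcription factor it activates, by 0.49 ± 0.10, and PTP2, a phosphatase that acts on the kinase, by 0.89 ± 0.10. ROM1, an exchange factor for Rho1, rose by 0.47 ± 0.10 and SDP1, another phosphatase, by 0.46 ± 0.12, while the exchange factor TUS1 fell by 0.30 ± 0.07. Of the 5 sensor genes 0 were called by limma, and 0 had an unadjusted p under 0.05 (changes from −0.19 to 0.08), but 2 fell without wild-type array 1. Of 11 chitin synthesis genes 8 rose and 0 fell (median 0.35), including the chitin synthases CHS1 (0.68 ± 0.08) and CHS3 (0.41 ± 0.08) and GFA1, which makes the glucosamine precursor (0.63 ± 0.06). The chitin rises numbered between 6 and 9 with 1 array left out. The calls of CHS2, SKT5 and CHS7 ended with only the 6 arrays of the comparison in the fit. In that fit the calls of SDP1 and of the glucan genes FKS1, KRE6, GAS4 and EXG1 ended too. So did those of EGT2 and PRY3, which belong to the daughter cell separation genes below. Of 9 glucan synthesis genes 2 rose (between 1 and 4 with 1 array left out, bmh mutant arrays 1 and 2 and wild-type array 2 each moving the count by over 1.5 times), and of 10 glucan remodelling genes 5 rose and 1 fell (3 rose without bmh mutant array 1), GAS2, a glucan-elongating enzyme, most (0.67 ± 0.14). Of 11 genes for daughter cell separation 1 rose and 2 fell, the rises being between 0 and 4 with 1 array left out (4 without wild-type array 1, 0 without bmh mutant array 1 or 3 or wild-type array 2 or 3) and the falls between 1 (without bmh mutant array 1) and 3, and DSE2, a daughter-specific wall protein, fell by 0.45 ± 0.08.

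**Figure D2:**
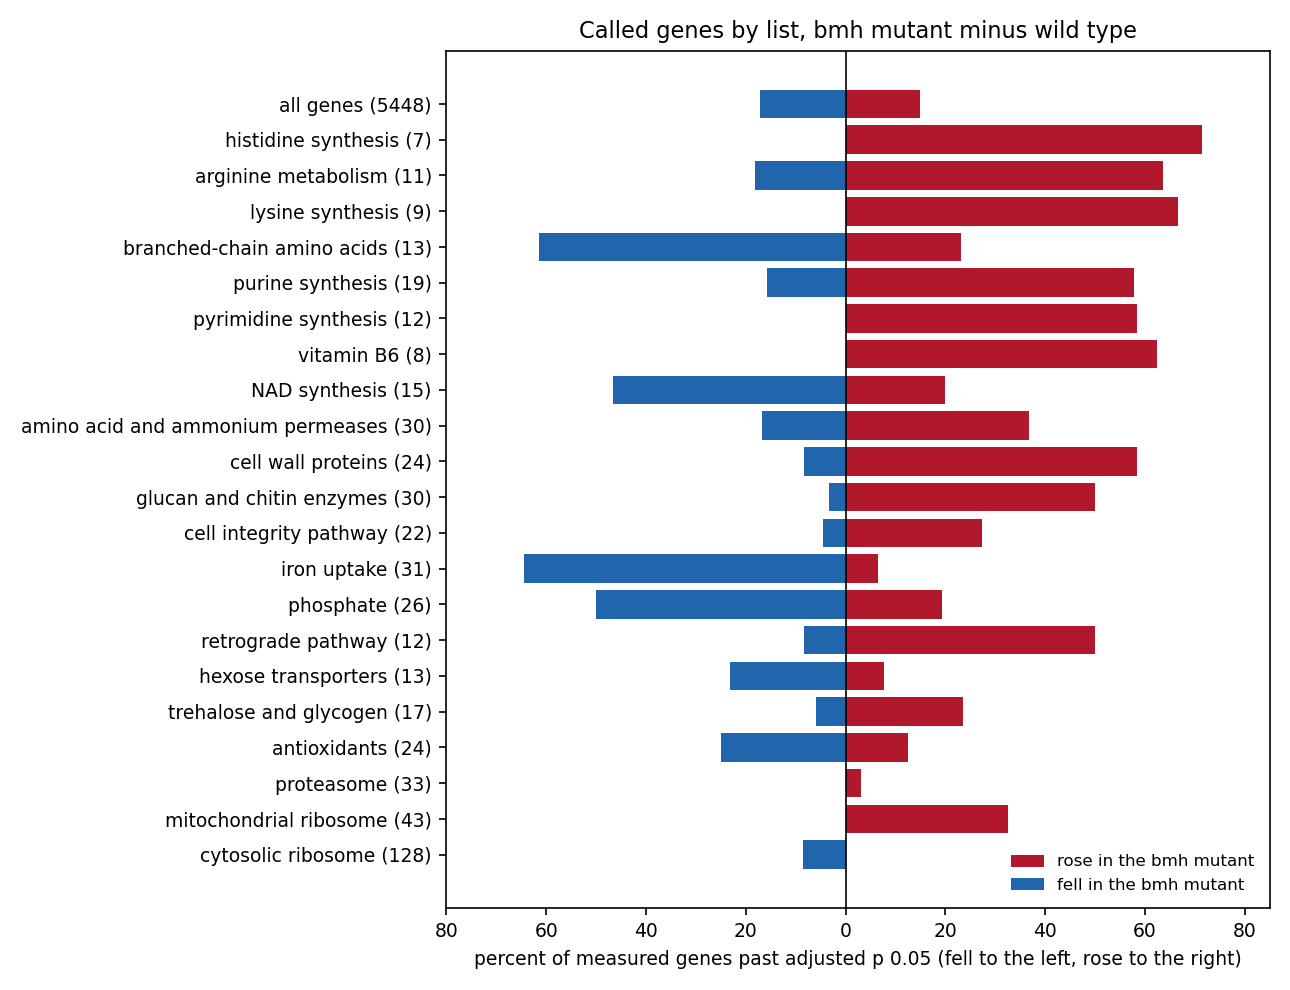
Percent of measured genes that rose (red, right) or fell (blue, left) in the bmh mutant for 21 gene groups and for all genes, with the number measured in brackets. All genes stand at 14.8% risen and 17.2% fallen; the group with the highest share of falls is iron uptake (20 of 31) and the histidine, arginine and lysine groups show mostly rises.

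Iron uptake genes fell broadly, 20 of 31 against 2 that rose, with a median change of −0.47. All 6 genes of the oxidase and permease group fell, and 5 did without bmh mutant array 3. The call of SMF3 (−0.64) ended with only the 6 arrays of the comparison in the fit (limma adjusted p = 0.086). So did those of FRE6, a reductase gene (−0.36, limma adjusted p = 0.077), and FIT2, a wall protein gene (−0.53, limma adjusted p = 0.13). FET3, the multicopper oxidase of high-affinity iron uptake, measured 8.73, 8.48 and 8.36 on the bmh mutant arrays, against 12.31, 11.74 and 11.60 on the wild-type arrays. The mutant arrays were all well below the wild-type arrays, and the change was −3.36 ± 0.19 (adjusted p = 6.6e-08). FTR1, the iron permease that works with Fet3, fell by 2.38 ± 0.19, and the low-affinity transporter FET4 by 0.72 ± 0.07. Of 6 reductase genes 4 fell, FRE4 most, with 7.57, 7.51 and 7.79 on the bmh mutant arrays, against 10.49, 10.64 and 10.90 on the wild-type arrays. That is a change of −3.05 ± 0.11 with no overlap (adjusted p = 1.4e-09). FRE1, the main surface reductase, fell by 1.34 ± 0.10. Of 7 siderophore transporter and wall protein genes 4 fell, with SIT1, a ferrioxamine transporter, at −1.40 ± 0.25, and of 5 copper delivery genes 4 fell, with FRE7 at −1.25 ± 0.26, CCC2, the copper pump that loads Fet3, at −0.98 ± 0.18, the copper transporter CTR1 at −0.74 ± 0.12, and the chaperone ATX1 at −0.67 ± 0.09.

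Regulators and recycling genes of iron moved in both directions. AFT1, the activator of iron uptake genes, fell by 0.95 ± 0.07 (adjusted p = 7.1e-07), and its paralog AFT2 changed by 0.12 ± 0.06 (adjusted p = 0.14). ISU1, the scaffold of iron-sulfur cluster assembly, measured 12.81, 12.71 and 12.56 on the bmh mutant arrays, against 11.62, 10.70 and 10.69 on the wild-type arrays. HMX1, the heme oxygenase, rose by 1.13 ± 0.10, against 1.69 ± 0.19 for ISU1. Of 11 zinc genes 1 rose and 4 fell. ZPS1, a wall protein gene induced by low zinc, fell by 0.87 ± 0.14, and ZRT1, the high-affinity zinc transporter, measured 11.51, 11.22 and 11.24 on the bmh mutant arrays, against 11.38, 12.60 and 12.47 on the wild-type arrays. ZRT1 values overlapped, and its call (−0.83 ± 0.24, adjusted p = 0.02) ended without bmh mutant array 2 or 3 or wild-type array 2 or 3. The zinc falls numbered from 1 to 6 with 1 array left out, and bmh mutant arrays 2 and 3 and wild-type arrays 2 and 3 each moved them by over 1.5 times; the 1 rise, ZRG8 (0.37 ± 0.12), was not called without bmh mutant array 1 or 3 or wild-type array 2 or 3.

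Phosphate-responsive genes were lower, 13 of 26 falling and 5 rising (median −0.29). SPL2, an inhibitor of low-affinity phosphate uptake that is induced by phosphate shortage, measured 7.95, 7.36 and 7.76 on the bmh mutant arrays, against 10.91, 10.98 and 10.96 on the wild-type arrays. Its change was −3.26 ± 0.12 (adjusted p = 1.9e-09). PHO5, the main secreted acid phosphatase, measured 9.49, 8.86 and 9.01 on the bmh mutant arrays, against 11.54, 11.85 and 11.57 on the wild-type arrays, a change of −2.53 ± 0.13. PHO11, whose probe set can also read near-identical copies, fell by 2.66 ± 0.15, whereas PHO3, the constitutive acid phosphatase, rose by 0.62 ± 0.07. All 4 VTC genes, which encode the polyphosphate polymerase complex, fell, from −1.34 ± 0.11 for VTC3 to −0.56 ± 0.08 for VTC1, and PHM6, of unknown function, fell by 2.13 ± 0.11. PHO81, the inhibitor of the Pho80-Pho85 kinase, fell by 0.56 ± 0.11, and the activator PHO4 changed by −0.44 ± 0.16 (adjusted p = 0.057; called without wild-type array 2 or 3). PHO2, its partner, changed by 0.26 ± 0.09, and that call ended without bmh mutant array 1 or 3 or wild-type array 2 or 3. The transporter genes were not uniform. PHO84, the main high-affinity transporter, changed by −0.23 ± 0.07 and PHO89 by −0.80 ± 0.25, with overlapping arrays and calls that ended without bmh mutant array 2 or 3 or wild-type array 2 or 3; GIT1, for glycerophosphoinositol, fell by 0.75 ± 0.14, and the low-affinity PHO87 rose by 0.75 ± 0.06.

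**Figure D3:**
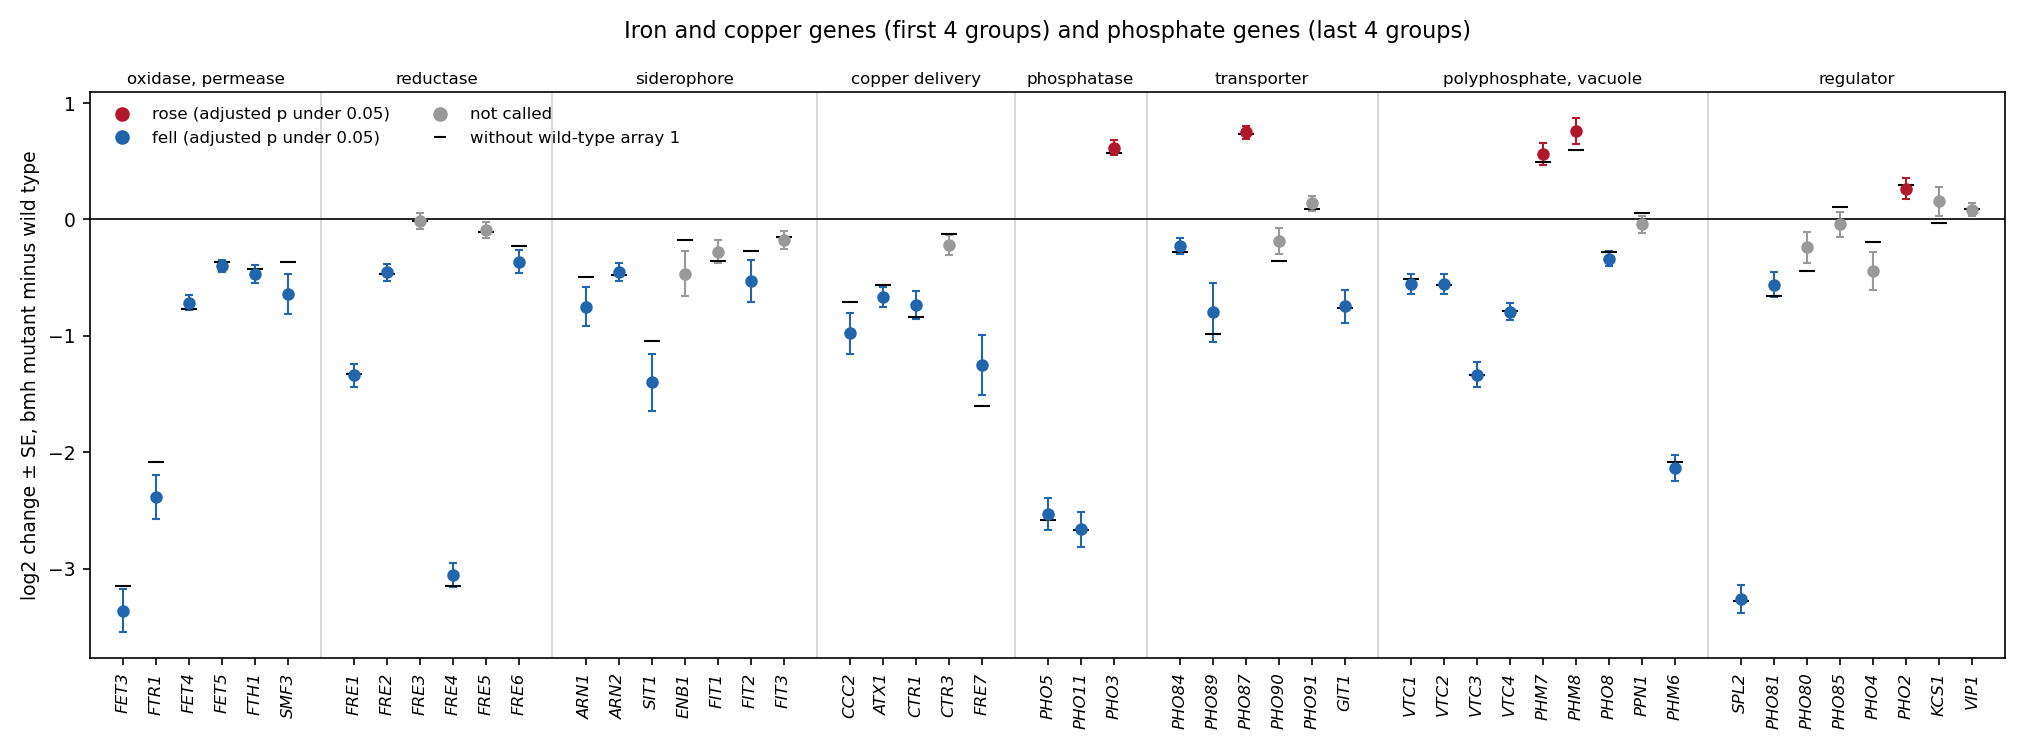
Log2 change (bmh mutant minus wild type, ± SE, y axis) of iron and copper genes (4 groups on the left) and phosphate genes (4 groups on the right); red genes rose, blue fell, grey were not called, and black dashes give the change without wild-type array 1. FET3 (−3.36), FRE4 (−3.05) and SPL2 (−3.26) lie lowest, and PHO3, PHO87, PHM7, PHM8 and PHO2 are the genes shown in red.

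Genes of ethanol use, glucose signalling and hexose transport moved in both directions. ADH2, the alcohol dehydrogenase that oxidises ethanol and a standard reporter of glucose repression, measured 10.25, 9.72 and 9.86 on the bmh mutant arrays, against 7.83, 7.03 and 7.31 on the wild-type arrays. All mutant arrays were above all wild-type arrays, and the change was 2.55 ± 0.17 (adjusted p = 3.7e-07). Of 15 alcohol and acetaldehyde genes 5 rose and 3 fell, with ALD4, mitochondrial aldehyde dehydrogenase, at 1.37 ± 0.18 and another mitochondrial isozyme, ALD5, at −0.74 ± 0.11; the rises went to 3 without bmh mutant array 2 or 3. Of 30 glucose signalling genes 2 rose and 6 fell (6.67% and 20%, against 14.8% and 17.2% of all genes). TOS3, a kinase that activates Snf1, rose by 0.92 ± 0.12, MIG3, a repressor induced by glucose, fell by 0.90 ± 0.10, and SNF3, the sensor of low glucose, by 0.50 ± 0.12, while MIG1, HXK2 and SNF1, the main repressor, hexokinase and kinase of the pathway, changed by −0.13 ± 0.06, 0.01 ± 0.05 and 0.13 ± 0.09 and did not pass the test. The falls in this group numbered 3 without bmh mutant array 1 and 9 without wild-type array 1, and the rises between 1 and 3, each mutant array and wild-type array 2 moving them by over 1.5 times. With only the 6 arrays of the comparison in the fit, the calls of SNF3, REG1, REG2, MTH1 and CAT8 ended (limma adjusted p from 0.066 to 0.11). Of 13 hexose transporter genes 1 rose and 3 fell (7.69% and 23.1%, against 14.8% and 17.2% of all genes). HXT4 fell most (−1.46 ± 0.13), then HXT2 (−0.82 ± 0.13), both transporters of higher affinity, and HXT1, the low-affinity transporter of high glucose (−0.39 ± 0.08). Without bmh mutant array 1, 2 hexose transporter genes rose.

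Targets of the retrograde pathway, which links mitochondria to the nucleus and contains the 14-3-3 partners MKS1 and RTG3, were higher. Of 7 target genes 5 rose and 0 fell (median 1.39). PYC1, pyruvate carboxylase, measured 11.81, 11.79 and 11.81 on the bmh mutant arrays, against 10.36, 9.62 and 9.66 on the wild-type arrays, a change of 1.92 ± 0.15. CIT2, the peroxisomal citrate synthase that serves as the pathway's reporter, measured 11.50, 11.82 and 11.71 on the bmh mutant arrays, against 10.17, 10.40 and 10.23 on the wild-type arrays, a change of 1.41 ± 0.09. IDH1, IDH2 and ACO1, enzymes of the early citric acid cycle, rose by 1.43 ± 0.26, 1.39 ± 0.26 and 1.09 ± 0.21. On wild-type array 1 the median of these 7 genes was 1.05 above the other wild-type arrays, and without it DLD3 (0.26) and CIT1 (1.00) were called too and all 7 rose. Of the 5 regulators, RTG2 rose by 0.28 ± 0.07 and LST8 fell by 0.27 ± 0.08, a call that ended without bmh mutant array 1 or wild-type array 3.

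HSP12 and YRO2 had the largest changes among the stress genes, which moved in both directions. Of 14 small heat shock and membrane stress genes 5 rose and 2 fell (median 0.02); without wild-type array 1, 7 rose and 3 fell (median 0.22), and 1 fell without bmh mutant array 3. YRO2, a membrane protein related to the heat shock protein Hsp30, measured 10.92, 11.25 and 11.31 on the bmh mutant arrays, against 8.14, 7.50 and 6.89 on the wild-type arrays. Its change was 3.65 ± 0.24 (adjusted p = 3.1e-07), next to 3.81 ± 0.50 for HSP12. HSP26 and HSP104 changed by −0.12 ± 0.23 (adjusted p = 0.72) and −0.41 ± 0.11 (adjusted p = 0.014, not called without bmh mutant array 3), and HSP26 was called at 0.24 without wild-type array 1. Of 17 trehalose and glycogen genes 4 rose and 1 fell, and 7 rose without wild-type array 1; the falls numbered from 0 to 3 without bmh mutant array 2 or wild-type array 2 or 3. GLG1, a glycogen initiation protein, rose by 0.60 ± 0.09, and TPS1, of trehalose synthesis, changed by 0.00 ± 0.14 (adjusted p = 1), or 0.22 (adjusted p = 0.0099) without that array. Of 24 antioxidant genes 3 rose and 6 fell, with CTT1, cytosolic catalase, at 0.44 ± 0.10 and the thioredoxins TRX1 and TRX2 at −0.54 ± 0.07 and −0.46 ± 0.09; 5 rose without wild-type array 1. Of 17 Ras and protein kinase A genes 2 rose and 1 fell, YAK1 (above) and PDE1, a phosphodiesterase for cAMP (0.58 ± 0.13), and without wild-type array 1, 4 rose and 4 fell. The 1 fall, RAS2 (−0.38 ± 0.13), was not called without bmh mutant array 1, 2 or 3 and was −0.18 without wild-type array 1.

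NCE103, the single carbonic anhydrase of budding yeast, was among the largest rises. It measured 13.67, 13.68 and 13.65 on the bmh mutant arrays, against 11.25, 10.43 and 10.78 on the wild-type arrays. The mutant arrays agreed closely, all well above the wild-type arrays, and the change was 2.85 ± 0.15 (adjusted p = 3.6e-08). YGP1, a secreted glycoprotein induced on nutrient limitation, rose by 2.69 ± 0.18, AAD10, a putative aryl-alcohol dehydrogenase, by 2.53 ± 0.07, CYC7, a cytochrome c isoform, by 2.34 ± 0.22, and BAG7, a GTPase-activating protein for Rho1, by 2.14 ± 0.12. SFK1, a membrane protein linked to phosphoinositide signalling, SRL3, ECM13, the mitochondrial enzyme gene PDH1 and the uncharacterised YJL218W completed the 20 largest rises, with changes from 2.06 to 2.67. Beside the genes described above, the 20 largest falls held SFG1, a transcription factor of pseudohyphal growth (−2.33 ± 0.08), MSH5, a meiotic crossover protein (−1.96 ± 0.10), and the uncharacterised YAR068W (−2.36 ± 0.08) and YHR022C (−1.56 ± 0.10). GPP2, a glycerol phosphatase, rose by 1.18 ± 0.12, the 1 gene of 9 in the osmotic response that was called, with 2 called without bmh mutant array 1 or wild-type array 1.

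Several DNA damage genes fell, cyclin genes moved in both directions, and the drug resistance and proteasome groups held few called genes. Of 11 DNA damage genes 0 rose and 5 fell (45.5%, against 17.2% of all genes), among them HUG1, an inhibitor of ribonucleotide reductase (−0.92 ± 0.09), and the reductase subunits RNR4 (−0.50 ± 0.05) and RNR1 (−0.38 ± 0.07). Of 16 cyclin and inhibitor genes 4 rose and 4 fell, with PCL5 (above) the largest change. Of 23 autophagy genes 4 rose and 3 fell, with ATG22 at 0.65 ± 0.08 and ATG9 at −0.52 ± 0.08; with 1 array left out the autophagy rises numbered 2 to 5 and the falls 2 to 5, bmh mutant arrays 1, 2 and 3 and wild-type arrays 2 and 3 each moving 1 of them by over 1.5 times. Of 14 calcineurin and ion genes 3 rose and 1 fell (1 to 5 and 1 to 2 with 1 array left out, 5 and 2 without wild-type array 1), with CMK2, a calmodulin-dependent kinase, at 0.49 ± 0.07 and PMA2, a minor proton pump, at −0.71 ± 0.13. Of 12 multidrug resistance genes 1 rose and 3 fell, RSB1, a sphingoid base transporter, most (−0.90 ± 0.13). The 1 rise, PDR12 (0.24 ± 0.08), was not called without bmh mutant array 2 or 3 or wild-type array 2 or 3. Of 33 proteasome genes RPT2 alone was called (0.26 ± 0.06); without wild-type array 1, 6 rose and 1 fell.

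Ribosomal genes changed by small amounts. Of 43 mitochondrial ribosomal protein genes 14 rose and 0 fell, with a median change of 0.12 and a largest change of 0.47; without wild-type array 1, 17 rose and 1 fell. With only the 6 arrays of the comparison in the fit, 7 rose. Of 128 cytosolic ribosomal protein genes 0 rose and 11 fell (median −0.07), 8.59% against 17.2% of all genes, and the falls numbered between 4 and 13 with 1 array left out, bmh mutant arrays 1, 2 and 3 and wild-type array 3 each moving the count by over 1.5 times; after quantile normalization 6 fell.

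The same 14-3-3 mutations can be followed in arrays whose means do not enter the changes above. This contrast is the combined mutant minus the hdac mutant, both of which lack HDA1 and RPD3. In that background 1982 genes were called (36.4%; 954 rose, 17.5%, and 1028 fell, 18.9%). Of the 807 genes that rose without the deletions, 378 (46.8%) rose there as well and 61 fell, and of the 935 that fell, 369 (39.5%) fell there and 87 rose. These are 39.6% of the 954 rises and 35.9% of the 1028 falls of that background. Of 89 rises of at least 2-fold 73 (82.0%) were called in the same direction, with median changes of 1.47 without the deletions and 0.69 with them. Of 64 such falls 31 (48.4%) were, with medians of −1.34 without the deletions and −0.29 with them. No test compared these shares. The interaction, which tests whether the change differs between the backgrounds, was called for 1289 genes (23.7%).

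All 20 of the largest rises were called in the same direction in the deacetylase mutant background, and 17 had a called interaction, 15 of them with a smaller change there. These genes were picked by their change without the deletions, which the interaction subtracts. That choice favours a smaller change in the other background. NCE103 changed by 2.85 ± 0.15 without the deletions and by 2.69 ± 0.15 with them (interaction −0.15 ± 0.21, adjusted p = 0.64). ADH2 rose more, by 4.72 ± 0.17 (interaction 2.17 ± 0.24, adjusted p = 4.8e-05), and so did BAG7 (3.31 ± 0.12, interaction adjusted p = 0.00033) and LEU2 (3.61 ± 0.11, interaction adjusted p = 1.1e-07). LEU2 is among the loci that commonly carry marker alleles in W303 strains, and the part of such alleles in its values was not tested. PIR3 and KDX1 rose by 1.97 ± 0.19 and 0.34 ± 0.09, less than without the deletions (interactions −2.24 ± 0.27 and −2.21 ± 0.13, adjusted p = 8.1e-05 and 1.5e-07), and ADE17 by 0.69 ± 0.10 (interaction −2.33 ± 0.14, adjusted p = 3.1e-07).

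Of the 19 largest falls other than BMH2, 9 were called in the same direction in that background and 2 in the opposite one, and 18 had a called interaction, all with a smaller change there. The falls too were picked by their change without the deletions, which favours a smaller change there. FET3 changed by −0.39 ± 0.19 and FRE4 by −0.22 ± 0.11, neither called (adjusted p = 0.12 and 0.13), and PHO5 by −0.21 ± 0.13 (adjusted p = 0.24). PHM6 was the exception, with −2.13 ± 0.11 without the deletions and −2.37 ± 0.11 with them (interaction adjusted p = 0.32). PTR2 and SPL2 fell there too, by 1.36 ± 0.16 and 1.12 ± 0.12. LEU1 and ARO9 rose there, by 0.40 ± 0.07 and 0.37 ± 0.13 (adjusted p = 0.00093 and 0.04). HIS4 and CIT2, which rose without the deletions, fell there by 0.97 ± 0.08 and 1.27 ± 0.09 (adjusted p = 1.8e-06 and 4.2e-07). Of the 43 mitochondrial ribosomal protein genes 0 rose and 15 fell there, and 19 had a called interaction.

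**Figure D4:**
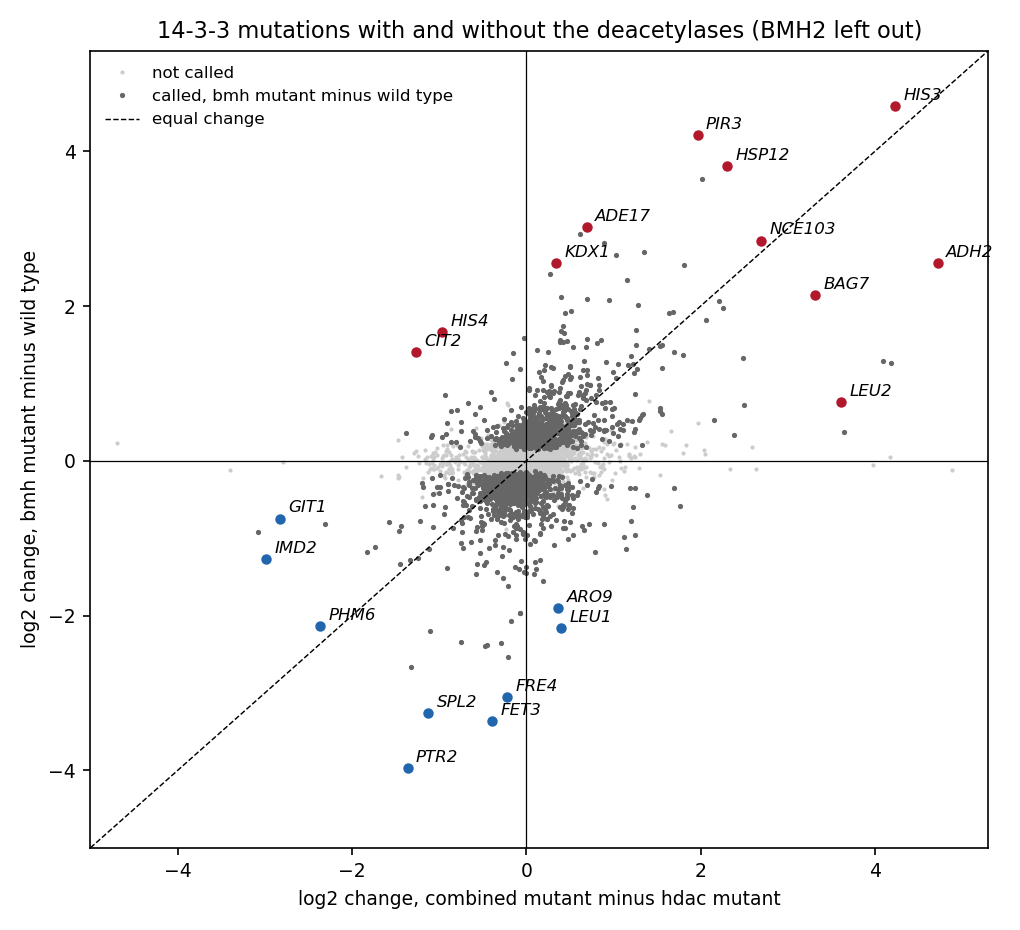
Log2 change between strains with and without the 14-3-3 mutations, for every gene but BMH2. The y axis, without the deacetylase deletions, is bmh mutant minus wild type. The x axis, with them, is combined mutant minus hdac mutant. Named genes are coloured by the direction on the y axis, dark grey points are genes called on the y axis, and the dashed line marks equal change. NCE103, HIS3 and PHM6 lie near the line, FET3, FRE4, LEU1 and ARO9 near or right of the vertical zero line, and ADH2, BAG7 and LEU2 to the right of it.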

How the data were processed

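RNA of 12 cultures was hybridised to Affymetrix Yeast Genome 2.0 arrays, 1 per culture. The deposited log2 signals were made by RMA (affy package; both per the submitters' processing notes); the sources used here give neither versions nor the array's genome build, and the base of the logarithm was taken as 2 from RMA and the range of the values. RMA normalizes arrays to a common distribution, which hides any change in total RNA per cell. Replicates are triplicate cultures per the series' design text, and arrays were grouped by genotype label. Precision is limited by 3 arrays per group.

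The platform annotation gave 1 symbol to 5497 of 5715 probe sets, several to 0 and none to 218. Entrez identifiers were used to update 12 symbols, and 49 further probe sets of a gene, those with the lower mean, were dropped, which left 5448 genes (100 read by _s_at and 18 by _x_at probe sets, which can read near-identical copies). limma 3.58.1 (R 4.3.3, statmod 1.5.0) fitted the means of the 4 groups on all 12 arrays, with eBayes (residual degrees of freedom 8, prior 3.82), and p-values were adjusted over all genes by Benjamini-Hochberg, with a threshold of 0.05. The fit was tested on simulated data. The comparison was set by the genotype labels; the gene lists and tests were chosen with earlier results of these data known.

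Named genes are BMH1 and BMH2; the 20 largest rises and falls that were called, did not overlap between strains and lay above background in 1 of them; members of lists of up to 15 genes; the 6 called members with the largest change and the regulators of longer lists; and neighbours of BMH1, BMH2 and HIS3. Genes singled out otherwise in the text, among them RAS2, MIG1, SNF1, HXK2, TPS1, HSP26, CIT1 and the mating-type markers, were chosen after their values were seen. The alternatives changed the normalization (quantile, median centring), the filter on dim genes or on shared probe sets, the fit (robust eBayes with trend, 2 groups, array weights, replicate block), the threshold (0.01) or the arrays, each left out in turn, or kept every probe set; leaving out wild-type array 1 in the fit of 2 groups was added after seeing the data.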

Additional observations from a re-analysis of the deposited data

Results flagged for a closer look

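The change between strains with and without the 14-3-3 mutations differed by background for 1289 genes (interaction, limma, Benjamini-Hochberg adjusted p under 0.05). The backgrounds are those with and without the deacetylase deletions, and 148 genes were called in opposite directions in them. Other differences between the strains are part of this interaction. Among these 148 genes the interaction was −2.67 for CIT2 and −2.64 for HIS4, which rose without the deletions and fell with them, and 2.57 for LEU1 and 2.27 for ARO9, which fell without the deletions and rose with them. The cause was not tested. Of the 218 probe sets that carry no gene symbol, and so entered none of the comparisons above, 65 changed in the bmh mutant when all probe sets were fitted (29.8%; 39 rose and 26 fell).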

How the results depend on the processing

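Of 303 called genes that were on a gene list other than the ribosomal ones, among the 20 largest rises or falls, or next to the 14-3-3 or marker loci, 241 stayed called whichever of the 6 arrays was left out, and 0 changed sign in an alternative run on them. With only the 6 arrays of the comparison in the fit 70 of these 303 calls ended, and at adjusted p under 0.01 69 ended. Of the uncalled genes of these kinds, 6 changed sign and were called without wild-type array 1: KNH1 (0.23 and −0.27 without it), BIO2 (0.02 and −0.22), SAM3 (−0.31 and 0.17), HSP26 (−0.12 and 0.24), RPN4 (0.04 and −0.25) and ARX1 (0.03 and −0.19); BIO2 also did so with array weights (−0.21). The 1742 calls became 1093 (523 rose, 570 fell; 1088 shared with the 1742) with only the 6 arrays in the fit, and 1076 (519 and 557) at adjusted p under 0.01, where the contrast of the combined with the hdac mutant gave 1279 and the interaction 738. With array weights, which gave wild-type array 1 the low weight of 0.086, 2544 were called (1236 rose), 3213 in the contrast of the combined with the hdac mutant and 2233 for the interaction. Leaving out 1 array gave 1319 to 2351 calls, 605 to 1111 rises, 687 to 1240 falls, 1569 to 2766 calls between the combined and hdac mutants and 1051 to 1962 interactions, the highest each time without wild-type array 1. That array left out of the fit of 6 gave 2164 calls (1030 and 1134), an alternative chosen after seeing the data. Changes of at least 2-fold numbered 126 to 175 over all alternatives. Same-numbered arrays of the bmh mutant and the wild type deviated with correlations of −0.0820, −0.100 and −0.0522, so no pairing by number was seen. With 3 arrays per group these values cannot show that there was none. With the replicate block 1571 genes were called (731 rose, 840 fell), 1863 between the combined and hdac mutants and 1174 for the interaction. Wild-type array 1 and the low number of arrays limit what small changes can be called.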
